A study of Mus musculus with 3 samples.

Results

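The cholesterol and fatty acid synthesis genes are a set of 29 listed mouse genes that make, regulate or move sterols and fatty acids, out of the 31053 genes counted. They were taken by name and not by their values: 7 enzymes of the mevalonate pathway, 11 later enzymes of cholesterol synthesis, 4 genes of the SREBP control system, 3 sterol transport genes and 4 fatty acid enzymes. All 29 were counted in every library, and 24 reached a mean level of at least 5 CPM (counts of a gene scaled to the same total in every group of cells) over the 3 libraries. Fdft1, Sqle, Lss, Tm7sf2 and Hsd17b7 did not, and are given by their values but not counted among the members that differed.

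Droplet single-cell RNA sequencing was compared in 3 libraries of sorted P14 cells. These are CD8 T cells whose transgenic receptor sees the GP33-41 epitope of LCMV, the lymphocytic choriomeningitis virus, on H-2Db. The TdLN library came from the tumour-draining lymph node and the PBMC library from the blood of C57BL/6 mice with subcutaneous B16.Gp melanoma, a B16.F10 line made to express the LCMV glycoprotein. Naive CD44- GFP+ P14 cells of TCF-1-GFP reporter mice had been transferred 8 days after the tumour cells. Both were collected 16 days after that transfer, labelled strain C57BL/6 and genotype WT, and sorted for CD8 T cells positive for CD45.1 and CD44. The memory library, also C57BL/6 and WT, held P14 cells of day 200 after acute LCMV infection, sorted for CD8 T cells positive for CD45.1, CD44, CD127 and CD62L and negative for KLRG1. Memory cells had thus met an acute virus infection and not a tumour, and had passed a narrower gate. The number of mice per library and the tissue of the memory cells are not stated, and tumour-infiltrating cells were not analysed here.

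Each group was 1 library, so tissue, day, gate and preparation cannot be told apart and no test between groups was possible. Intervals in parentheses are exact 95% intervals for counting error only. The 6265 TdLN cells kept held 69537836 UMI counts, the 5652 PBMC cells 48987260 and the 7003 memory cells 70116366. Median depth was 9674 UMIs per TdLN cell, 7085 per PBMC cell and 9956 per memory cell. Cd3e, Cd3d, Cd8a, Cd8b1 and Trac, which mark CD8 T cells, were all above 300 CPM in every library. Other cell types were also present: 3 or more genes of a B cell, myeloid, platelet, melanoma or stromal list were found in 196 TdLN, 66 PBMC and 9 memory cells. At 2 or more genes of 1 list, the counts were 1172 TdLN, 459 PBMC and 81 memory cells. From 6 to 15 kept cell barcodes were shared between each pair of libraries.

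Cells make cholesterol from acetyl-CoA through mevalonate and farnesyl diphosphate, then through squalene and a series of sterols. SREBP transcription factors switch on most of these enzymes when membrane sterol is low: SCAP carries them to the Golgi for cleavage, and INSIG proteins hold them back when sterol is plentiful. Sterol overload instead acts through LXR receptors, whose targets ABCA1 and ABCG1 export cholesterol. In T cells, activation and division are known to call on SREBP activity for new membrane, while resting cells keep sterol synthesis low.

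Promoters are shown for 5 genes: Hmgcs1, whose window alone holds the sterol regulatory element letters searched; Idi1 and Cyp51, which differed most between cycling and other TdLN cells among the higher members; Insig1, the highest in TdLN over memory among members at the floor; and the exporter Abca1, which was low in cycling and effector cells. RefSeq (GRCm38.p6) gave 29 promoter windows for 23 of the 29 members, each from 250 bases before to 50 bases after an annotated start, read 5′ to 3′ on the strand of the gene. Capitals mark the sterol regulatory element letters TCACNCCAC and the NF-Y letters CCAAT, on either strand.
Hmgcs1 (chr13:119690101-119690400, plus strand): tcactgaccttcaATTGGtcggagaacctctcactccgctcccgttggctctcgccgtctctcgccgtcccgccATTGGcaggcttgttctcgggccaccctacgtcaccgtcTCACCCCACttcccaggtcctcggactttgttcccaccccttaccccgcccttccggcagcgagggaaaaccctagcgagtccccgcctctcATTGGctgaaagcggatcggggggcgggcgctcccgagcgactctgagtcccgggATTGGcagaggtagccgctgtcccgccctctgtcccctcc
Idi1 (chr13:8885356-8885655, plus strand): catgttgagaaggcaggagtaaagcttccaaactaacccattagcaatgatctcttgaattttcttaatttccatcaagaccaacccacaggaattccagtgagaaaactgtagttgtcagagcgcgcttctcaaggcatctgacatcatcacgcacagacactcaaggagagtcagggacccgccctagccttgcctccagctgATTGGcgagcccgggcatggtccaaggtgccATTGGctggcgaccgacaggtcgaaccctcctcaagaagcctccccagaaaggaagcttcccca
Cyp51 (chr5:4104648-4104947, minus strand): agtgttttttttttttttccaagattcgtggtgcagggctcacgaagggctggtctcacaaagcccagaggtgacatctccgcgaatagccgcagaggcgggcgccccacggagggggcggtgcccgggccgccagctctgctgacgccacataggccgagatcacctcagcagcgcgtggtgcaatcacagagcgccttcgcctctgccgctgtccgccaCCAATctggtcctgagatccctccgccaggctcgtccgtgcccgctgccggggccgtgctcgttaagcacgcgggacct
Insig1 (chr5:28071162-28071461, plus strand): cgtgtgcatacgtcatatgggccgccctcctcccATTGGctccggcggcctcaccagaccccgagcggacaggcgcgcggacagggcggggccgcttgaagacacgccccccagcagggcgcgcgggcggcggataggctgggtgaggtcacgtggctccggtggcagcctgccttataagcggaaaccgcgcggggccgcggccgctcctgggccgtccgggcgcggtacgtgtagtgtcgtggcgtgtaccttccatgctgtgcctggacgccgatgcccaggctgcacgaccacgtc
Abca1 (chr4:53159846-53160145, minus strand): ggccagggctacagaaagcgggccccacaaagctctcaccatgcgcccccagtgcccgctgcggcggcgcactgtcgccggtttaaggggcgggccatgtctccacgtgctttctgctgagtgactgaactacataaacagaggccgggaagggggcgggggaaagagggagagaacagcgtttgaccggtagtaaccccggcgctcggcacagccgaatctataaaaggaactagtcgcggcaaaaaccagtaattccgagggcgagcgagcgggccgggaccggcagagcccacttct

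TCACNCCAC was found in 1 of the 29 windows, that of Hmgcs1, where it begins 137 bases before the start. That is 3.45% of member windows, against 1.24% of all 32817 promoter windows. CCAAT occurred in 69.0% of member windows, against 37.4% of all windows. The Sp1 letters GGGCGG occurred in 79.3%, against 35.6%, also counted on either strand. Hmgcs1, Idi1, Cyp51 and Insig1 hold CCAAT in the windows shown, and Abca1 does not. Other members did not all share this pattern. Acat2, at a log2 ratio of 1.23 for cycling over other TdLN cells, holds no CCAAT in its window. Srebf2, at -0.13, holds 1. A link between CCAAT and level was not tested. Only the exact letters were searched, so a window with just a variant of an element was not counted. Matches of letters are not measured binding.

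Most of the set had higher levels in TdLN than in memory cells, the feedback gene Insig1 and the desaturase Scd2 by most among those at the floor of 5 CPM. Of these 24 members, 6 were at least 1.5-fold higher in TdLN (Mvk, Cyp51, Dhcr7, Insig1, Srebf1 and Scd2) and none at least 1.5-fold lower. Of all 8036 genes at the floor, 12% were at least 1.5-fold higher and 5.97% lower. At 2-fold or more, 2 were higher (Insig1 and Scd2) and 0 lower, beside 4.19% and 2.34% of all genes. The members' median log2 ratio was 0.43, against 0.14 for all genes at the floor, and 23 of 24 were above 0. With TMM factors in place of totals, 4 members were higher and 0 lower, beside 7.54% and 9.20% of all genes, and the median log2 ratio was 0.28 for members and -0.01 for all genes; Msmo1 and Ebp then changed sign. The interval lay above 1 for 21 members and below 1 for 0.

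**Figure D1:**
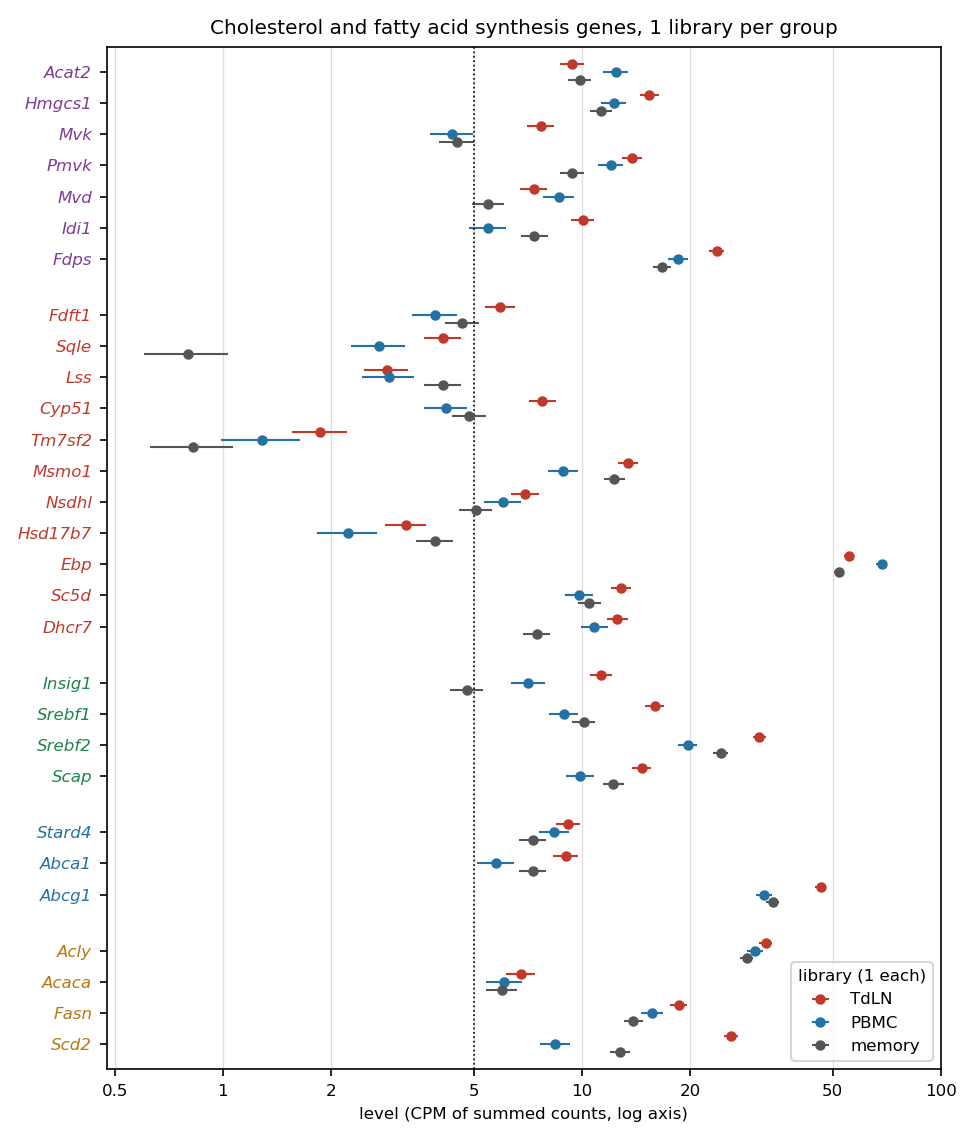
Level of each of the 29 genes in CPM on a log axis, with points for the TdLN, PBMC and memory libraries, 1 each, and bars for 95% intervals of counting error; the dotted line is the floor of 5 CPM, and gene names are coloured by role. Insig1, Srebf1 and Scd2 sit to the right in TdLN, while Ebp and Acat2 are farthest right in PBMC.

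The 7 mevalonate enzymes summed to 87.4 CPM (85.2–89.6) in TdLN cells, 73.7 (71.3–76.2) in PBMC and 64.6 (62.8–66.6) in memory cells. Hmgcs1, which makes HMG-CoA, was at 15.4 CPM in TdLN cells, 12.2 in PBMC and 11.3 in memory cells, 1.36-fold higher in TdLN than in memory (1.24–1.5). Mvk, mevalonate kinase, was at 7.68 CPM in TdLN cells, 4.35 in PBMC and 4.49 in memory cells, 1.71-fold higher in TdLN than in memory (1.48–1.97). The PBMC and memory intervals of Mvk overlap, and TdLN stands above both. Fdps, the synthase of farnesyl diphosphate, was at 23.7 CPM in TdLN cells, 18.5 in PBMC and 16.8 in memory cells. Idi1, which isomerizes isopentenyl diphosphate, was at 10.1 CPM in TdLN cells, 5.47 in PBMC and 7.37 in memory cells. Idi1 was thus highest in TdLN and lowest in PBMC, with intervals that do not overlap. Pmvk, the next kinase, was at 13.8 CPM in TdLN cells, 12 in PBMC and 9.38 in memory cells. Mvd, the decarboxylase, was at 7.35 CPM in TdLN cells, 8.61 in PBMC and 5.48 in memory cells. Mvd was highest in blood with all cells, but without cells with 2 or more effector genes its log2 ratio of TdLN over PBMC was 0.10, against -0.23 with all cells. Acat2, which joins 2 acetyl-CoA at the entry of the pathway, was at 9.40 CPM in TdLN cells, 12.5 in PBMC and 9.86 in memory cells. Its TdLN and memory intervals overlap, so TdLN and memory were not told apart for Acat2 by counting error.

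The 11 later cholesterol enzymes summed to 127 CPM in TdLN cells, 121 in PBMC and 106 in memory cells, 1.19-fold higher in TdLN than in memory (1.16–1.23). Cyp51, which removes a methyl group from lanosterol, was at 7.77 CPM in TdLN cells, 4.18 in PBMC and 4.85 in memory cells. Dhcr7, which makes cholesterol in the last step of one branch, was at 12.6 CPM in TdLN cells, 10.8 in PBMC and 7.50 in memory cells. Cyp51 was highest in TdLN alone, while Dhcr7 was above memory in both tumour-bearing libraries with all cells. Over the settings tried, the log2 ratio of Dhcr7 in PBMC over memory fell as low as 0.10, against 0.53 with all cells. Msmo1, the sterol methyl oxidase, was at 13.5 CPM in TdLN cells, 8.86 in PBMC and 12.3 in memory cells, and Sc5d, the sterol desaturase, at 12.9 CPM in TdLN cells, 9.82 in PBMC and 10.5 in memory cells. Msmo1 was lowest in blood, while the PBMC and memory intervals of Sc5d overlap. Nsdhl, a dehydrogenase that acts after Msmo1, was at 6.96 CPM in TdLN cells, 6.02 in PBMC and 5.06 in memory cells. Ebp, the sterol isomerase, was at 55.4 CPM in TdLN cells, 68.4 in PBMC and 51.9 in memory cells. Ebp was highest in blood with all cells, but without cells with 2 or more effector genes its log2 ratio of TdLN over PBMC was 0.05, against -0.30 with all cells.

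Of the 5 enzymes under the floor, Sqle, squalene epoxidase, had the widest gap. It was at 4.10 CPM in TdLN cells, 2.71 in PBMC and 0.799 in memory cells, 5.13-fold higher in TdLN than in memory (3.84–6.96) and 3.4-fold higher in PBMC than in memory (2.47–4.73). Lss, which closes the ring to lanosterol after Sqle, was at 2.86 CPM in TdLN cells, 2.90 in PBMC and 4.09 in memory cells, 0.699 times memory in TdLN (0.581–0.841). The neighbouring steps Sqle and Lss thus differed in opposite directions from memory. Tm7sf2, a sterol reductase, was 2.26-fold higher in TdLN than in memory (1.65–3.14), at 1.87 CPM in TdLN cells, 1.29 in PBMC and 0.827 in memory cells; it overlaps Vps51 on the same strand, so reads could have been shared. Hsd17b7, a sterol ketone reductase, was at 3.24 CPM in TdLN cells, 2.23 in PBMC and 3.89 in memory cells. Fdft1, squalene synthase, was at 5.93 CPM in TdLN cells, 3.90 in PBMC and 4.65 in memory cells.

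The 4 regulators were the group with the widest difference between the tumour-bearing libraries. They summed to 73.1 CPM in TdLN cells, 45.6 in PBMC and 51.5 in memory cells, 1.42-fold higher in TdLN than in memory (1.36–1.48) and 1.60-fold higher than in PBMC (1.53–1.69). Insig1 was at 11.3 CPM in TdLN cells, 7.08 in PBMC and 4.78 in memory cells, 2.37-fold higher in TdLN than in memory (2.08–2.70). Insig1 is both a brake on SREBP and a known SREBP target, and it stood apart in all 3 libraries. Srebf1, which encodes the SREBP-1 proteins that favour fatty acid genes, was at 15.9 CPM in TdLN cells, 8.90 in PBMC and 10.1 in memory cells. Srebf2, which encodes the SREBP-2 that favours cholesterol genes, was at 31.2 CPM in TdLN cells, 19.7 in PBMC and 24.4 in memory cells. Scap, their escort, was at 14.7 CPM in TdLN cells, 9.90 in PBMC and 12.2 in memory cells. Srebf1, Srebf2 and Scap therefore shared the order TdLN, memory, PBMC.

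Among the transport genes, Abcg1 was at 46.2 CPM in TdLN cells, 32.2 in PBMC and 34.0 in memory cells. Abca1 was at 9.02 CPM in TdLN cells, 5.76 in PBMC and 7.30 in memory cells, and 107 myeloid-type TdLN cells with 0.809% of the TdLN counts held 13.1% of its TdLN counts. The same myeloid-type cells had 174 CPM of Abcg1 and held 3.05% of its TdLN counts. Without all cells of another type the log2 ratio of Abca1 between TdLN and memory was 0.09, against 0.30 with them. The macrophage, monocyte or dendritic list of 6 genes summed to 192 CPM in TdLN with none at 0, 8.45 CPM in PBMC with 3 at 0, and 4.41 CPM in memory cells with 1 at 0. Stard4, which carries cholesterol between membranes inside the cell, was at 9.16 CPM in TdLN cells, 8.37 in PBMC and 7.29 in memory cells.

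Among the fatty acid enzymes, Scd2, the desaturase that makes oleate, was at 26.0 CPM in TdLN cells, 8.43 in PBMC and 12.8 in memory cells. It was 2.04-fold higher in TdLN than in memory (1.88–2.21), and PBMC was lowest. Scd1, its close copy and no member, was at 2.16 CPM in TdLN cells, 0 in PBMC and 0.0285 in memory cells, and reads of the 2 could have been split. Fasn, fatty acid synthase, was at 18.6 CPM in TdLN cells, 15.7 in PBMC and 13.9 in memory cells. Acly, which makes cytosolic acetyl-CoA from citrate, was at 32.5 CPM in TdLN cells, 30.4 in PBMC and 28.7 in memory cells, and Acaca, the carboxylase before Fasn, at 6.76 CPM in TdLN cells, 6.08 in PBMC and 5.98 in memory cells. Acly and Acaca differed between the 3 libraries far less than Scd2. Of the TdLN counts of Scd2, 2.54% were in myeloid-type cells, at 81.7 CPM. Cells with 3 or more B cell genes held 2.15%, at 52.9 CPM.

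The TdLN difference was smaller without dividing cells. Cycling cells, those with 3 or more of Mki67, Top2a, Birc5, Ube2c, Pclaf and Rrm2, made up 5.27% of the cells in TdLN, 0.637% in PBMC and 0.2% in memory, and held 13.8% of TdLN counts. Without them, 5 of the 6 members stayed at least 1.5-fold higher in TdLN than in memory (Mvk, Dhcr7, Insig1, Srebf1 and Scd2), and 0 were lower, beside 9.51% and 5.66% of all genes. The members' median log2 ratio was then 0.32, against 0.11 for all genes. Cyp51 was under the threshold, with a ratio of 1.19 (1.02–1.38). Idi1 was then at a ratio of 1 (0.881–1.14) and Stard4 at 0.997 (0.875–1.14), so neither differed beyond counting error. Acat2 was at 0.805 (0.715–0.906), below memory. Insig1 was at 2.29 (2.01–2.62), little changed, and Scd2 at 1.82 (1.67–1.98), no longer at 2-fold or more. Sqle was at 4.10 (3.03–5.62). The mevalonate sum was 1.16-fold higher in TdLN without cycling cells (1.11–1.21), against 1.35-fold with them (1.30–1.41), while the regulator sum was 1.42-fold higher either way.

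**Figure D2:**
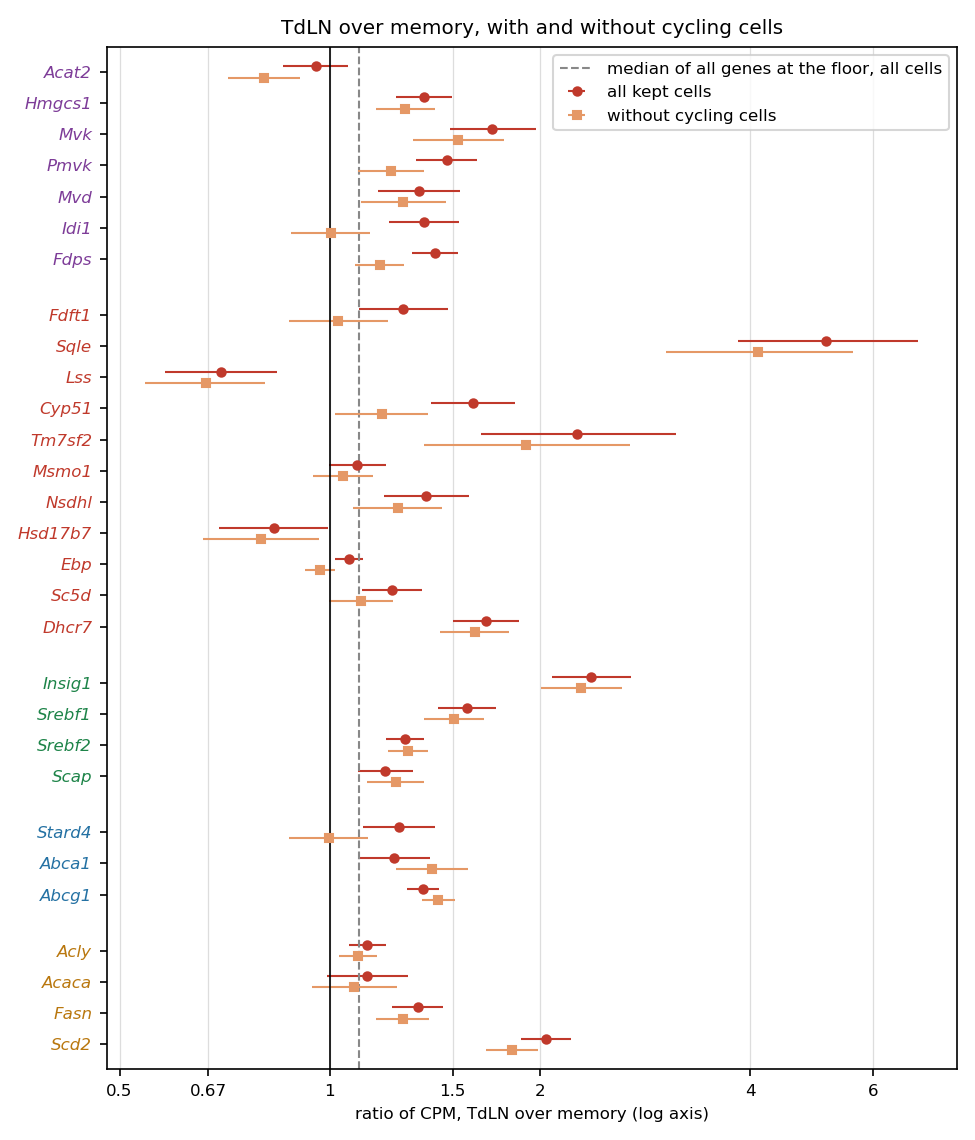
Ratio of CPM, TdLN over memory, on a log axis for all kept cells (circles) and without cycling cells (squares), with bars for 95% intervals of counting error; the dashed line is the median of all genes at the floor, with all cells. Without cycling cells Idi1 and Stard4 lie at 1, while Insig1 stays at 2.29.

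The count of members past 1.5-fold between PBMC and memory cells was near the background. Of 24 members, Mvd was at least 1.5-fold higher in PBMC, with a ratio of 1.57 (1.37–1.81), and Scd2 at least 1.5-fold lower, with a ratio of 0.660 (0.586–0.743). Of all genes at the floor, 5.01% were at least 1.5-fold higher and 5.45% lower. Without cells with 2 or more effector genes, 0 members were higher and 2 lower, beside 4.02% and 11.1% of all genes, and 8 of 24 changed sign (Hmgcs1, Mvk, Nsdhl, Stard4, Abca1, Abcg1, Acly and Acaca). With all cells at 2-fold or more, 0 were higher and 0 lower, beside 2.22% and 1.13% of all genes. Single genes still moved past counting error: the interval lay above 1 for 10 members and below 1 for 7. Dhcr7 was 1.44-fold higher in PBMC (1.28–1.63), Insig1 1.48-fold higher (1.27–1.73) and Ebp 1.32-fold higher (1.26–1.38). Over the settings tried, the lowest log2 ratios were 0.10 for Dhcr7, 0.26 for Insig1 and 0.05 for Ebp. With all cells they were 0.53, 0.57 and 0.40. Idi1 was at 0.742 times memory in PBMC (0.638–0.862) and Msmo1 at 0.720 (0.640–0.809). The comparisons of TdLN and PBMC with memory share the memory library, and those of TdLN share the TdLN library, so a gene that differs in several is not an independent observation.

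Between the tumour-bearing libraries, 9 of 24 members were at least 1.5-fold higher in TdLN than in PBMC (Mvk, Idi1, Cyp51, Msmo1, Insig1, Srebf1, Srebf2, Abca1 and Scd2) and 0 lower, beside 11.7% and 4.19% of all genes. With TMM factors 5 were higher and 0 lower, beside 7.06% and 6.40% of all genes, and Stard4 and Acly changed sign. Without cells that hold 3 or more genes of another cell type 8 were higher, and Abca1, at a log2 ratio of 0.40, was under the threshold. Scd2 had the highest ratio of the 24, 3.09 (2.77–3.44), and was the 1 member at 2-fold or more, with 0 lower, beside 2.97% and 1.95% of all genes. Without cycling cells 8 were higher and 1 lower, beside 9.89% and 4.47% of all genes. Of the 9 members, 6 stayed: Idi1, Cyp51 and Msmo1 were lost, and Scap and Abcg1 passed 1.5-fold. Acat2 was then lower in TdLN, with a ratio of 0.640 (0.566–0.723). The 18 cholesterol enzymes together were 1.10-fold higher in TdLN than in PBMC (1.07–1.13) with all cells and 0.981 times PBMC (0.954–1.01) without cycling cells. Ebp was a large part of that sum and ran the other way: the 17 enzymes without it were 1.26-fold higher in TdLN (1.22–1.30) with all cells and 1.11-fold higher (1.07–1.15) without cycling cells. The regulators were 1.60-fold higher in TdLN in both cases.

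Within the TdLN library, cycling cells held more RNA of the cholesterol enzymes per count than other cells and far less Abca1. Of 24 members, 11 were at least 1.5-fold higher in cycling cells and 2 lower, beside 19% and 13.6% of all genes. At 2-fold or more, 6 were higher (Acat2, Pmvk, Idi1, Fdps, Cyp51 and Stard4) and 1 lower (Abca1), beside 7.44% and 4.34%. The members' median log2 ratio was 0.51, against 0.04 for all genes. With totals without ribosomal protein and mt- genes, 8 members were higher and 3 lower, beside 10.1% and 28.0% of all genes, the medians were 0.23 for members and -0.25 for all genes, and Insig1 changed sign. With TMM factors 11 were higher and 2 lower, beside 15.6% and 18.0% of all genes. Without cells with 2 genes of another cell type, 215 of 330 cycling and 4878 of 5935 other cells remained. Then 12 members were higher and 2 lower, beside 20.2% and 14.4% of all genes. The cells of both groups come from 1 library, and cycling cells were deeper, with a median of 26563.5 UMIs, against 9514 in other cells.

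Without matched depth, the early pathway differed most. The 7 mevalonate enzymes summed to 168 CPM (160–176) in cycling cells and 74.6 CPM (72.4–76.8) in other cells, a ratio of 2.25 (2.12–2.38), and all 7 were above 1. Idi1 was at 27.1 CPM in cycling cells and 7.32 in other cells, 3.70-fold higher (3.17–4.33). Fdps was at 49.2 CPM in cycling cells and 19.6 in other cells, 2.51-fold higher (2.25–2.79). These enzymes also feed farnesyl and geranylgeranyl groups to proteins, apart from sterols. Pmvk was 2.55-fold higher in cycling cells (2.21–2.94) and Acat2 2.34-fold higher (1.96–2.78), while Hmgcs1 was 1.47-fold higher (1.26–1.71) and Mvd 1.37-fold higher (1.08–1.72).

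The 11 later enzymes summed to 205 CPM in cycling cells and 114 CPM in other cells, a ratio of 1.79 (1.70–1.88). Cyp51 was at 20.7 CPM in cycling cells and 5.70 in other cells, 3.62-fold higher (3.02–4.33). Cyp51 overlaps Akap9 on the opposite strand, and the strand setting of the counting is not given in the sources used here. Below the floor, Fdft1 was 2.76-fold higher in cycling cells (2.22–3.41) and Sqle 2.79-fold higher (2.15–3.61). Ebp was 1.73-fold higher (1.60–1.87) and Sc5d 1.78-fold higher (1.51–2.08), and the last enzyme Dhcr7 1.27-fold higher (1.05–1.51).

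The regulators did not follow the enzymes. They summed to 74.0 CPM in cycling cells and 73.0 CPM in other cells, a ratio of 1.01 (0.935–1.10). Srebf2 was at 28.8 CPM in cycling cells and 31.6 in other cells, and its interval held 1. Scap was at 11.7 CPM in cycling cells and 15.2 in other cells, 0.771 times other cells (0.628–0.939). Srebf1 was 1.33-fold higher in cycling cells (1.13–1.55) and Insig1 1.21-fold higher, with an interval of 0.989–1.46 and a ratio under 1 with totals without ribosomal protein and mt- genes. The mRNA of a SREBP does not measure how much of the protein is cleaved.

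The exporters were lower in cycling cells. Abca1 was at 1.36 CPM in cycling cells and 10.2 CPM in other cells, a ratio of 0.132 (0.0701–0.228), from 13 counts. Abcg1 was at 31.6 CPM in cycling cells and 48.6 CPM in other cells, a ratio of 0.651 (0.576–0.733). Both carry sterol out of the cell, while Stard4, which moves it within the cell, was at 21.3 CPM in cycling cells and 7.22 in other cells. Scd2 was 1.86-fold higher in cycling cells (1.66–2.08), and Acly, Acaca and Fasn were 1.22-fold to 1.35-fold higher. Within 15000 to 40000 UMIs the log2 ratio was -0.28 for Fasn and -0.08 for Acaca, so the sign changed there. From 15000 to 25000 UMIs, Fasn was at 13.7 CPM (9.17–19.7) in cycling cells and 15.8 (13.2–18.9) in other cells. Acaca was at 6.14 CPM (3.27–10.5) and 7.53 (5.73–9.72) in the same cells. These intervals overlap, so a turn in direction was not shown. Cycling cells held 37.2% of the TdLN counts of Idi1, 36.7% of Cyp51 and 32.0% of Stard4, but 2.07% of Abca1.

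**Figure D3:**
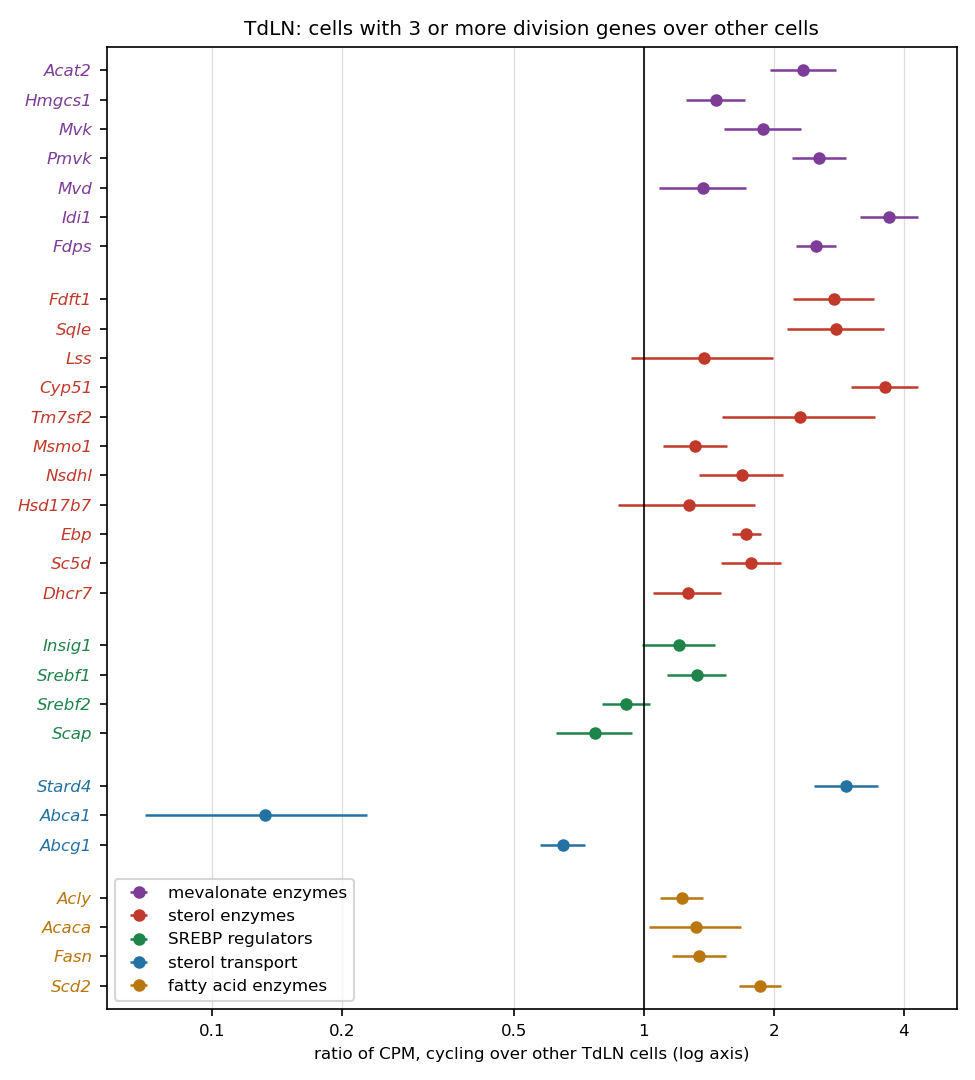
Ratio of CPM, cycling over other TdLN cells, on a log axis, with bars for 95% intervals of counting error and colours for the role of each gene. Mevalonate and sterol enzymes lie to the right of 1, the regulators lie near it, and Abca1 lies far to the left at 0.132.

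In TdLN the level of the mevalonate enzymes rose with the number of division genes seen in a cell. The mevalonate sum was 72.5, 81.1, 88.3, 132, 166 and 178 CPM in TdLN cells with 0, 1, 2, 3 to 4, 5 and 6 of the 6 division genes. The regulator sum was 73.3, 72.2, 70.9, 73.2, 73.8 and 74.2 CPM in the same cells, and so level throughout. Its members were not all level. Srebf1 was at 15.6 CPM (14.5–16.8) with 0 division genes and 22.1 (18.6–26.0) with 6. Scap was at 15.3 CPM (14.2–16.5) with 0 and 10.1 (7.81–12.9) with 6. Depth went with this split, from a median of 9404 UMIs in cells with 0 division genes to 31750 in cells with 6.

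Cycling and other cells were also set side by side within classes of depth, without cells that hold 3 or more genes of another type. From 10000 to 15000 UMIs, the mevalonate sum was 113 CPM (79.5–157) in 24 cycling cells and 71.7 CPM (68.3–75.2) in 1985 other cells. In that class Fdps was at 9.46 CPM (1.95–27.6) in cycling cells, from 3 counts, and 19.9 in other cells. Cyp51 was at 0 counts in cycling cells (interval to 11.6 CPM) and 4.92 CPM in other cells. Both intervals held the level of other cells, so these few counts could not show whether either gene followed the sum. From 15000 to 25000 UMIs, the mevalonate sum was 115 CPM (101–131) in 104 cycling cells and 80.3 CPM (74.1–86.8) in 423 other cells. At 25000 UMIs or more it was 188 CPM (178–198) in 183 cycling cells and 106 CPM (90.5–124) in 54 other cells. The mevalonate sum was higher in cycling cells in all 3 classes. The deepest class was not even in depth, with a mean of 37866 UMIs in cycling cells and 28619 in other cells, and within each kind of cell the sum was highest in that class. From 15000 to 25000 UMIs the means were closer, at 20355 UMIs in cycling cells and 18517 in other cells. In order of depth, the later enzymes summed to 142, 187 and 215 CPM in cycling cells and 109, 122 and 150 CPM in other cells. The early pathway thus did not stand out from the later enzymes from 15000 to 25000 UMIs. Fdps was at 58.6 CPM in the deepest cycling cells and 23.9 in the deepest other cells, but at 25.5 CPM in cycling cells and 19.9 in other cells from 15000 to 25000 UMIs, where the intervals overlap. Idi1 was at 31.5 CPM in the deepest cycling cells and 14.2 in the deepest other cells. Cyp51 was at 23.1 CPM in the deepest cycling cells and 18.1 in the deepest other cells, with overlapping intervals, and at 16.1 CPM in cycling cells and 5.87 in other cells from 15000 to 25000 UMIs. Abca1 was at 0.144 CPM in the deepest cycling cells, from 1 count, and 11 CPM in the deepest other cells. Abca1 was at 1.89 CPM in cycling cells, from 4 counts, and 6.51 CPM in other cells from 15000 to 25000 UMIs. Abca1 was thus low in cycling cells in both classes, while the intervals of Cyp51 were apart from 15000 to 25000 UMIs and overlapped in the deepest class.

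**Figure D4:**
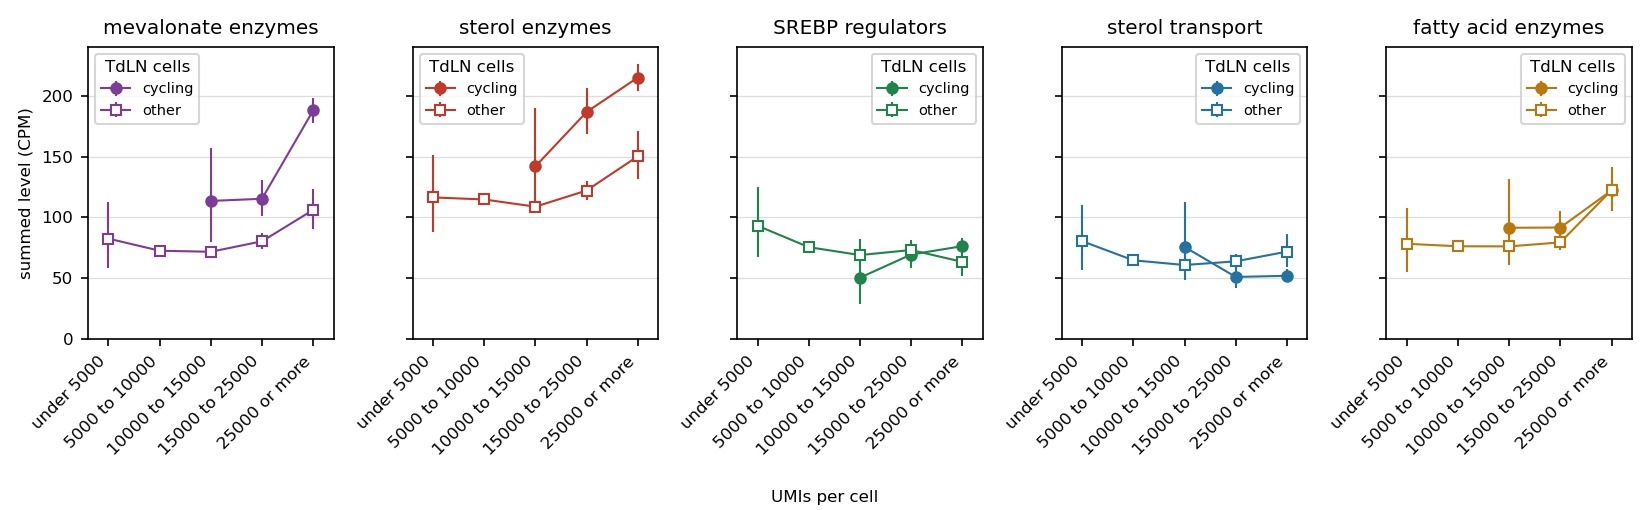
Summed level in CPM of each role in TdLN cells by UMIs per cell, cycling cells as filled circles and other cells as open squares, without cells of another type; bars are 95% intervals of counting error, and classes with under 20 cells are left out. In the deepest class mevalonate enzymes reach 188 CPM in cycling cells and 106 CPM in other cells, while the regulators lie close together.

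With the 5% of TdLN cells that had the most UMIs left out, 110 cycling cells remained, and the log2 ratio of cycling over other cells was 0.05 for Acat2, 0.07 for Fdps, 0.62 for Cyp51 and 1.36 for Idi1. In cells of 15000 to 40000 UMIs, with 229 cycling and 483 other cells, it was 1.06 for Acat2, 0.99 for Fdps, 1.02 for Cyp51 and 1.02 for Idi1. Acat2 and Fdps therefore differed between cycling and other cells mainly among the deepest cells. In the shallower cells of 5000 to 15000 UMIs, of which 29 were cycling, it was -0.82 for Fdps, -1.34 for Stard4 and 0.59 for Abcg1, each opposite in sign to the value over all cells, and 8 members were at least 1.5-fold higher and 8 lower in cycling cells, beside 20.3% and 21.3% of all genes. Doublets were not removed, and their part in the deepest cells was not tested.

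Fewer cycling cells were in the other libraries. In PBMC, 36 cycling cells gave a mevalonate sum of 153 CPM and other cells 72.7 CPM, a ratio of 2.10 (1.69–2.58), with Idi1 4.76-fold (2.63–8) and Cyp51 4.99-fold higher (2.54–8.92). In memory, 14 cycling cells gave 142 CPM and other cells 64.4 CPM, a ratio of 2.21 (1.54–3.08). The ratio of the mevalonate sum was thus close in all 3 libraries without matched depth, at 2.25 in TdLN, and the intervals overlap. PBMC cycling cells were deeper, with a median of 15168 UMIs, against 7040.5 in other cells. Memory cycling cells had a median of 18083.5 UMIs, against 9953 in other cells. From 15000 to 25000 UMIs, without cells with 3 or more genes of another type, the TdLN sums were 115 CPM in cycling cells and 80.3 in other cells. Sterol enzymes were 1.77-fold higher in PBMC cycling cells (1.47–2.11) but at 0.916 in memory (0.587–1.36), from 24 counts.

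Outside division, the widest split was in blood. PBMC effector cells, with 2 or more of Gzma, Gzmb, Cx3cr1, Zeb2 and Klrg1, held more RNA of the later cholesterol enzymes per count and less Abca1. There were 2776 of them and 2840 other non-cycling PBMC cells, with median depths of 5266.5 and 11671.5 UMIs. Of 24 members, 9 were at least 1.5-fold higher in effector cells and 3 lower. Of all genes, 29.2% were higher and 5.31% lower, and the members' median log2 ratio was 0.48, against 0.40 for all genes, so the count of higher members lies near the background. The later enzymes summed to 168 CPM in effector cells and 94.7 CPM in other cells, a ratio of 1.78 (1.69–1.87), and the mevalonate enzymes to 82.1 CPM in effector cells and 67.8 CPM in other cells, a ratio of 1.21 (1.13–1.30).

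Dhcr7 was at 16.5 CPM in PBMC effector cells and 7.82 in other cells, 2.11-fold higher (1.77–2.51). Ebp was at 95.8 CPM in effector cells and 52.9 in other cells, and Acly at 42.9 CPM in effector cells and 23.8 in other cells. Mvk went the other way, at 3.06 CPM in effector cells and 5.05 in other cells, a ratio of 0.606 (0.433–0.835). Abca1 was at 1.02 CPM in effector cells and 8.30 CPM in other cells, a ratio of 0.123 (0.0705–0.2), from 17 counts, and Abcg1 at 24 CPM in effector cells and 36.8 CPM in other cells. The Abca1 level differed with depth among non-cycling PBMC cells without those with 3 or more genes of another type. It was 1.83 CPM from 5000 to 10000 UMIs and 9.35 CPM from 10000 to 15000 UMIs. In the class of 5000 to 10000 UMIs, 1457 effector cells had 0.112 CPM of Abca1, from 1 count, and 713 other cells 4.56 CPM, with median depths of 5784 UMIs in effector cells and 7742 in other cells. From 10000 to 15000 UMIs, with medians of 11653 UMIs in 121 effector cells and 12375 in 1605 other cells, the Abca1 ratio was 0.432 (0.156–0.957), from 6 counts in effector cells. At that closer match of depth the Mvk ratio was 1.49 (0.745–2.70) and the Abcg1 ratio 0.861 (0.629–1.15), so the intervals of both held 1 and Mvk changed sign. Dhcr7 was still 2.07-fold higher in effector cells (1.26–3.26), Ebp 1.43-fold higher (1.15–1.75) and the sum of later enzymes 1.70-fold higher (1.47–1.96). The effector and the Tcf7 and Ccr7 cells of PBMC are parts of the same cells, so their ratios are not independent. Among memory cells, 350 met the effector rule, and 2 of 24 members were at least 1.5-fold higher in them (Srebf1, 1.65-fold, 1.23–2.19, and Stard4, 1.89-fold, 1.35–2.59) and 0 lower, beside 4.31% and 1.78% of all genes. Abca1 had a ratio of 0.788 there (0.47–1.24).

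**Figure D5:**
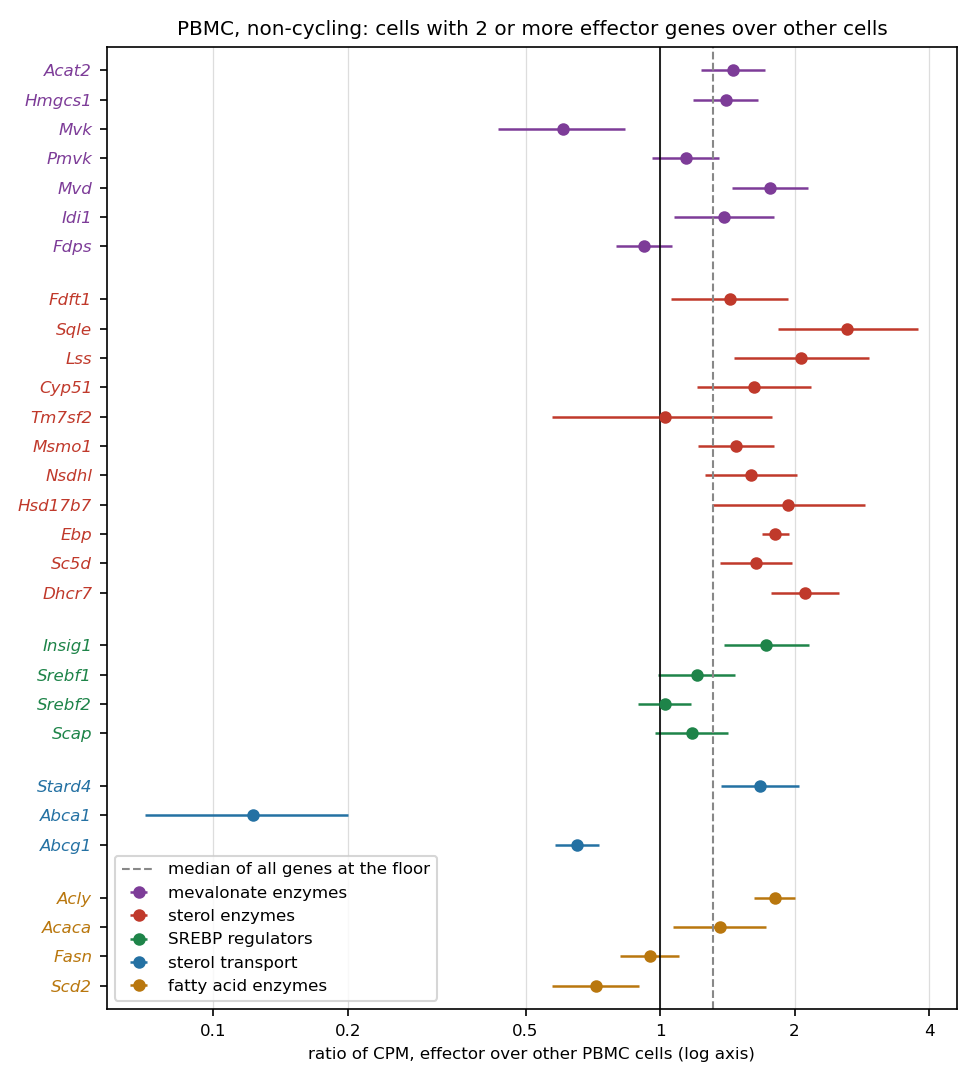
Ratio of CPM, effector over other non-cycling PBMC cells, on a log axis, with bars for 95% intervals of counting error; the dashed line is the median of all genes at the floor. Most sterol enzymes lie to the right of the dashed line, and Abca1 lies far to the left at 0.123.

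PBMC cells with both Tcf7 and Ccr7, a transcription factor and a homing receptor of naive and memory cells, were deeper than other non-cycling PBMC cells, with medians of 12478 UMIs in them and 5416 in other cells. Abca1 was at 8.85 CPM in them and 1.92 CPM in other PBMC cells, 4.61-fold higher (3.30–6.59), and Mvk at 6 CPM in them and 2.29 CPM in other PBMC cells, 2.62-fold higher (1.89–3.68). From 10000 to 15000 UMIs, with medians of 12417 UMIs in them and 11819 in other cells, the Abca1 ratio was 1.41 (0.921–2.23) and the Mvk ratio 1.89 (1.04–3.77). The Abca1 interval then held 1. Of 24 members, 2 were at least 1.5-fold higher in them and 9 lower, beside 4.87% and 26.9% of all genes. In TdLN, where 3887 of the non-cycling cells held both genes, 0 members were past 1.5-fold in either direction, beside 0.0871% higher and 1.53% lower among all genes. Memory cells likewise had 0 and 0, beside 0.149% and 0.585%.

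TdLN cells with a recent receptor signal, 3 or more of Nr4a1, Egr1, Egr2, Nr4a3, Tnfrsf9 and Irf8, shared the higher Idi1 without matched depth. The 162 cells had 18.3 CPM of Idi1 and other non-cycling TdLN cells 6.88 CPM, 2.66-fold higher (1.89–3.67). Fasn was 1.72-fold higher (1.32–2.20) and Cyp51 1.73-fold higher (1.07–2.67), so 3 of 24 members were past 1.5-fold, and 0 lower, beside 9.71% and 4.53% of all genes. The 162 cells were deeper, with a median of 11609 UMIs, against 9488 in other non-cycling TdLN cells. Within 5000 to 15000 UMIs the Idi1 ratio was 1.83 (0.965–3.18), with 105 cells, so its interval held 1. The interval lay above 1 for 4 of 24 members at all depths and for 1 within that range. Interferon-responding TdLN cells, 813 with 3 or more of Ifit1, Ifit3, Isg15, Usp18, Rsad2 and Oasl1, had 0 members past 1.5-fold, beside 2.17% of all genes higher and 0.635% lower.

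Other genes of the same pathways were given by 3 lists, beside 12% of all genes higher, 5.97% lower and an all-gene median log2 ratio of 0.14 for TdLN over memory. Of 20 further sterol genes, 14 were at the floor, 3 at least 1.5-fold higher in TdLN than in memory and 1 lower, with a median log2 ratio of 0.09. Tmem97, a sterol-responsive membrane protein, was at 8.51 CPM in TdLN cells, 3.96 in PBMC and 3.21 in memory cells, and its log2 ratio of cycling over other TdLN cells was 2.38. Mylip, which leads the LDL receptor to breakdown, was at 31.0 CPM in TdLN cells, 42.1 in PBMC and 46.7 in memory cells. Of 16 further fatty acid genes, 10 were at the floor, with 2 higher and 2 lower in TdLN than in memory and a median log2 ratio of -0.07. Lpin1, a phosphatidate phosphatase of lipid synthesis, was at 16.9 CPM in TdLN cells, 35.2 in PBMC and 36.9 in memory cells, a log2 ratio of -1.12 between TdLN and memory. Of 10 fatty acid oxidation genes, 9 were at the floor, with 0 higher, 1 lower (the isomerase Eci1, at a log2 ratio of -0.59) and a median of 0.26.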

How the data were processed

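Single-cell RNA had been read from the 3' end of transcripts in 3 libraries of sorted mouse CD8 T cells. The authors' deposited matrices give UMI counts, whole numbers for each gene in each barcode, from Cell Ranger 3.1.0 and mm10, as the submitters' processing notes have it. Whether strand was used is not given in the sources used here. Gene symbols and barcodes were read from the deposited lists.

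A cell was kept with 500 or more genes and no more than 10% mt- counts (6265 of 7503 TdLN, 5652 of 6165 PBMC and 7003 of 8321 memory barcodes). Doublets were not removed. Counts were summed over cells and divided by the total of all genes (CPM), with exact Poisson and exact conditional binomial 95% intervals (scipy 1.17.1) for counting error alone. Taking 3 counts as the limit, a count of 0 allows 0.0431 CPM in TdLN cells, 0.0612 in PBMC and 0.0428 in memory cells. No p-value is given because each group has 1 library. Genes with a mean of at least 5 CPM over the 3 libraries were compared, and ratios of at least 1.5-fold were counted. The members and lists were chosen with earlier results of these data known. Any of the 29 members could be named. Of genes outside the list, up to 4 of each context list were named by the size of their TdLN over memory ratio, and Scd1 was added after its values were seen. TMM factors (edgeR 4.0.16), other cell filters, floors and folds were tried. Coordinates are from RefSeq GRCm38.p6, the assembly of mm10. The calculation of the ratios was checked on simulated counts with counting error only, which cannot show the spread between cells or libraries. The classes of UMIs, the range of 15000 to 40000 UMIs, the sum without Ebp and the sets without cells with 3 genes of another cell type were chosen after seeing the data.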

Additional observations from a re-analysis of the deposited data

Results flagged for a closer look

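Abca1, the cholesterol exporter, had ratios of opposite sign in 2 libraries under the same contrast of cells. Its log2 ratio of Tcf7 and Ccr7 cells over other non-cycling cells was 2.21 in PBMC, 8.85 CPM against 1.92 CPM. In TdLN it was -0.39, 9.37 CPM against 12.3 CPM. The difference between the libraries was not tested, since each is 1 library. Without cells that hold 3 or more genes of another cell type, the TdLN ratio was 1.13 (0.928–1.38) and the PBMC ratio 4.58 (3.27–6.54), so the TdLN value then lay on the same side as the PBMC value and its interval held 1. That setting was chosen after seeing the data. PBMC cells with both genes were also deeper than other cells, and from 10000 to 15000 UMIs the PBMC ratio was 1.41 (0.921–2.23), with an interval that held 1.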

How the results depend on the processing

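Of 1151 values of single members under other settings, 59 changed sign, and 3 of these were at 1.5-fold or more with all cells. Apart from these 3, 918 stayed within the main counting interval and 230 did not. The 3 were for cycling over other TdLN cells within 5000 to 15000 UMIs, with 29 cycling cells: log2 ratios of -0.82 for Fdps, -1.34 for Stard4 and 0.59 for Abcg1, and 8 members at least 1.5-fold lower there, against 2. Cyp51, at a log2 ratio of 1.86 with all cells, had no finite log2 ratio within that range. It is therefore in neither the 1151 values nor the 3. Counts of members at least 1.5-fold apart moved as follows. TdLN over memory had 10 higher with at least 1000 genes and at most 5% mt- counts, 0 with a floor of 20 CPM (4 members) and 2 at 2-fold, against 6. TdLN over PBMC had 5 higher with TMM factors, 1 with a floor of 20 CPM and 1 at 2-fold, against 9; it had 2 lower with equal weight per cell, 1 without the 5% of cells with the most UMIs, and 1 without cells with 3 or more division genes or with any, against 0. PBMC over memory had 3 higher and 2 lower with equal weight per cell or with a floor of 1 CPM, against 1 and 1. It had 2 higher with the stricter cell filter, without the 5% deepest cells or without cells with 2 genes of another cell type. It had 0 and 0 with a floor of 20 CPM or at 2-fold, and 0 higher and 2 lower without cells with 2 effector genes. Cycling over other TdLN cells had 1 higher and 1 lower with a floor of 20 CPM, 6 and 1 at 2-fold, and 1 lower with equal weight per cell or with a rule of 2 division genes, against 11 and 2. The cause of these moves was not tested. No paired analysis was possible because each group is 1 library, and for the same reason no replicate could be left out.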

Other observations

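The following genes of the context lists were named for the size of their TdLN over memory ratio. Lipa, which frees cholesterol from its esters in lysosomes, was at 25.1 CPM in TdLN cells, 19.9 in PBMC and 14.4 in memory cells, and Npc2, which carries it on, at 393 CPM in TdLN cells, 337 in PBMC and 232 in memory cells. Their log2 ratios of TdLN over memory were 0.81 and 0.76 with all cells and 0.78 and 0.83 without cycling cells. Of the fatty acid genes, Elovl6, an elongase, had a log2 ratio of 0.95 and Acsl5, an acyl-CoA synthetase, one of 0.76, while Acss2, which activates acetate, had one of -0.63. Of the oxidation genes, Hadhb and Hadha, the subunits of the mitochondrial trifunctional protein, had log2 ratios of 0.56 and 0.48, and Etfdh one of 0.47.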
